A study of Mus musculus with 28 samples.

Results

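The genes described here are 96 mouse zinc finger genes of the Zfp family that lie on chromosomes 8, 9, 10 and 17. The rule for them uses name and place alone, and was set with earlier results of these data known. It takes every gene of the RefSeq gene table whose symbol is Zfp followed by a number, with or without 1 letter, on those chromosomes. The build is GRCm38.p6, the assembly of mm10. These genes make up 96 of 399 genes with such symbols and 96 of 49554 genes in the table. Chromosome 17 holds 45 of them, chromosome 8 holds 25, chromosome 9 holds 20 and chromosome 10 holds 6. All 96 are annotated as protein-coding, with a median gene length of 18.7 kb and a range of 2.63 to 300.2 kb. They are clustered: 66 of them stand in 9 groups of at least 3 genes whose starts follow each other within 500 kb, and 30 stand apart. The largest group, from Zfp160 to Zfp13 at chr17:21008941-23599755, holds 23 genes.

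The study measured chromatin by immunoprecipitation and sequencing of 2 histone marks, trimethylation (H3K9me3) and acetylation (H3K9Ac) of lysine 9 on histone 3, after digestion with micrococcal nuclease. The melanoma cells, labelled B16OVA and written B16 below, are a mouse line; its Setdb1 KO cells had received the puromycin vector pCRISPR-v2-puro with a guide against Setdb1, and B16 control cells had received the empty vector. Setdb1 KO cells and control cells of the mouse colon adenocarcinoma line MC38 were made in the same way, so all groups carry the vector and grew in puromycin. Each of these 4 groups had 3 numbered libraries per mark, which gave 24 libraries with island files, and 4 input samples were not used here. The labels do not say whether a KO population was 1 clone or a pool, or whether replicates were separate cultures, so p-values measure only the spread between these libraries.

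Most zinc finger genes of this kind encode DNA-binding proteins, many with a KRAB domain that recruits the corepressor Trim28. Trim28 in turn brings in Setdb1, the enzyme that writes H3K9me3, and this machinery is best known for silencing transposable elements. The clusters of KRAB zinc finger genes are themselves known to carry broad H3K9me3 over their bodies and 3′ ends, where the repeated finger-coding exons lie, while their promoters can carry active marks such as H3K9Ac. Zfp809 is known for silencing murine leukaemia proviruses, Zfp57 for protecting imprints, and Zfp42, also called Rex1, as a marker of pluripotent cells.

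The promoters of 6 of these genes are shown as examples of genes with H3K9Ac islands in both lines, in 1 line and in neither; they were chosen with the values known. Each runs from 250 bases before to 50 bases after the annotated start, as RefSeq gives it for GRCm38.p6, 5′ to 3′ on the gene's strand, with every CG dinucleotide in capitals. Zfp866 (chr8:69774862-69775161, minus strand) and Zfp426 (chr9:20492697-20492996, minus strand) had islands in all 12 H3K9Ac libraries and were the genes edgeR called in B16 KO over the whole gene region, while around these starts neither was called.
Zfp866: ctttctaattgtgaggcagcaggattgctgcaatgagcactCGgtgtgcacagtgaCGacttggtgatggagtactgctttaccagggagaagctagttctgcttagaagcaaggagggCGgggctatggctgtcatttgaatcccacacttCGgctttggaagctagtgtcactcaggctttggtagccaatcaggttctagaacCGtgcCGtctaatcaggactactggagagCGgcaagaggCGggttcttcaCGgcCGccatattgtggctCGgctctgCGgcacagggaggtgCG
Zfp426: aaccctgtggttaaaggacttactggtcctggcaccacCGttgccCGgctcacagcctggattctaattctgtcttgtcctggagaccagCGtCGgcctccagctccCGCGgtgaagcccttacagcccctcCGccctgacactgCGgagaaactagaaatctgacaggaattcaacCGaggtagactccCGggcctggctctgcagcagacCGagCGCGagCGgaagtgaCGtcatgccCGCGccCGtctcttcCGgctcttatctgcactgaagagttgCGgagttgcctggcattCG
Zfp820 (chr17:21845710-21846009, minus strand) had H3K9Ac islands in MC38 only and Zfp558 (chr9:18473596-18473895, minus strand) in B16 only.
Zfp820: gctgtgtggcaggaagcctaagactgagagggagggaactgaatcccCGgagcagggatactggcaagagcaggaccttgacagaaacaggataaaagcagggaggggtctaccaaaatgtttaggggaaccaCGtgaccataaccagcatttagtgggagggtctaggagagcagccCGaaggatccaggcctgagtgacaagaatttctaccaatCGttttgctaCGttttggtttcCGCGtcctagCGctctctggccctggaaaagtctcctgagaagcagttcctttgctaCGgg
Zfp558: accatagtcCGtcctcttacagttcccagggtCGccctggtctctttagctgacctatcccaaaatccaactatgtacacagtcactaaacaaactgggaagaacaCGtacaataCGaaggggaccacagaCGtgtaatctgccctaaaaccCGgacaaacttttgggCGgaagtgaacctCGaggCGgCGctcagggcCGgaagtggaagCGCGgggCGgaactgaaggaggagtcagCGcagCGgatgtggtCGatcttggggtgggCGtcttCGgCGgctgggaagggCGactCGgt
Zfp872 (chr9:22187916-22188215, plus strand) and Zfp105 (chr9:122922828-122923127, plus strand) had no H3K9Ac island in any of the 12 libraries.
Zfp872: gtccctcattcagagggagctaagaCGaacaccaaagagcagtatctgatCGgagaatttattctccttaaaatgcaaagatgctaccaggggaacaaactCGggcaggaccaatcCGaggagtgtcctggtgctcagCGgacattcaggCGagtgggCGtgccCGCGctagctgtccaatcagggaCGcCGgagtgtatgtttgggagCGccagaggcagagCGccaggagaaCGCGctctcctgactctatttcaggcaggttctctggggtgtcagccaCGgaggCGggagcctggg
Zfp105: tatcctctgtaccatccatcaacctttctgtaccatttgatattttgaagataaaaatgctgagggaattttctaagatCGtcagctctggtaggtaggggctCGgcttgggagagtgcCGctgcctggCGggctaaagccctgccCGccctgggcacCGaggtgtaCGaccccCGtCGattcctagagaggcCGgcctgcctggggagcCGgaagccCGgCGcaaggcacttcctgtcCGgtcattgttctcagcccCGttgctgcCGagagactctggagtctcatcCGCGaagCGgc
These windows hold 13 CG dinucleotides in Zfp866, 21 in Zfp426, 9 in Zfp820, 22 in Zfp558, 17 in Zfp872 and 19 in Zfp105. RefSeq gave a window for 84 of the 96 genes, with a median of 12 CG, against a median of 7 over 26794 windows of all genes. The letters CCGGAAG, searched on both strands, stood in 18 of the 84 windows (21.4%) and in 9.21% of all windows, among them those of Zfp426, Zfp558 and Zfp105. The letters CCAAT stood in 47 of the 84 (56.0%) and in 38.2% of all windows, among them those of Zfp866, Zfp820 and Zfp872. The 5 genes without any H3K9Ac island had between 10 and 19 CG in their windows.

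The files list islands, stretches enriched for reads, with the number of a library's reads in each. H3K9me3 libraries held 15200766 to 45419584 island reads and H3K9Ac libraries 28453371 to 78087809. Values below are RPM: island reads over a gene and 2 kb on either side, scaled to the reads counted in all gene regions of that library after TMM. A value of 0 means that no island was called there, not that no read fell there. H3K9me3 islands covered 367 to 431 Mb of the genome in B16 KO and 285 to 326 Mb in B16 control. In MC38 KO they covered 563, 442 and 215 Mb, and in MC38 control 345, 344 and 452 Mb, so MC38 KO replicates 1 and 3 stand apart. Of 8 listed melanocyte genes, Dct, Tyr and Tyrp1 had H3K9Ac islands in B16 and none in any MC38 library. Mitf, Pmel, Mlana, Sox10 and Slc45a2 had islands in MC38 too. The 8 summed to 1047 to 1677 RPM in B16 control and 205 to 285 RPM in MC38 control. The 8 listed genes of intestinal or simple epithelium had islands in both lines, at 132 to 178 RPM in B16 control and 154 to 180 RPM in MC38 control. The lines are labelled melanoma and colon. The files hold no measure of the Setdb1 protein or of the guide's cut: H3K9Ac over Setdb1 was 69.1, 80.2 and 86.9 RPM in B16 KO and 71.3, 77.2 and 81.4 RPM in B16 control, which checks nothing about the knockout.

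Many of the genes carried islands of both marks. H3K9me3 islands were present in all 3 libraries for 44 of the 96 genes in B16 KO, 53 in B16 control, 41 in MC38 KO and 48 in MC38 control. H3K9Ac islands were present in all 3 libraries for 82 genes in each of the 4 groups. Both marks were present in all 3 libraries for 36 genes (37.5%) in B16 KO and 44 genes (45.8%) in B16 control, against 12.02% and 14.9% of protein-coding genes in the same groups. In MC38 the shares were 34.4% of the zinc finger genes in KO and 39.6% in control, against 5.24% and 7.55% of protein-coding genes. In bulk chromatin, both marks over a gene may come from different cells, alleles or parts of the gene. H3K9me3 was called in no library for 19 of the 96 genes and in all 12 for 32, and H3K9Ac in no library for 5 (Zfp42, Zfp872, Zfp105, Zfp433 and Zfp781) and in all 12 for 78.

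**Figure D1:**
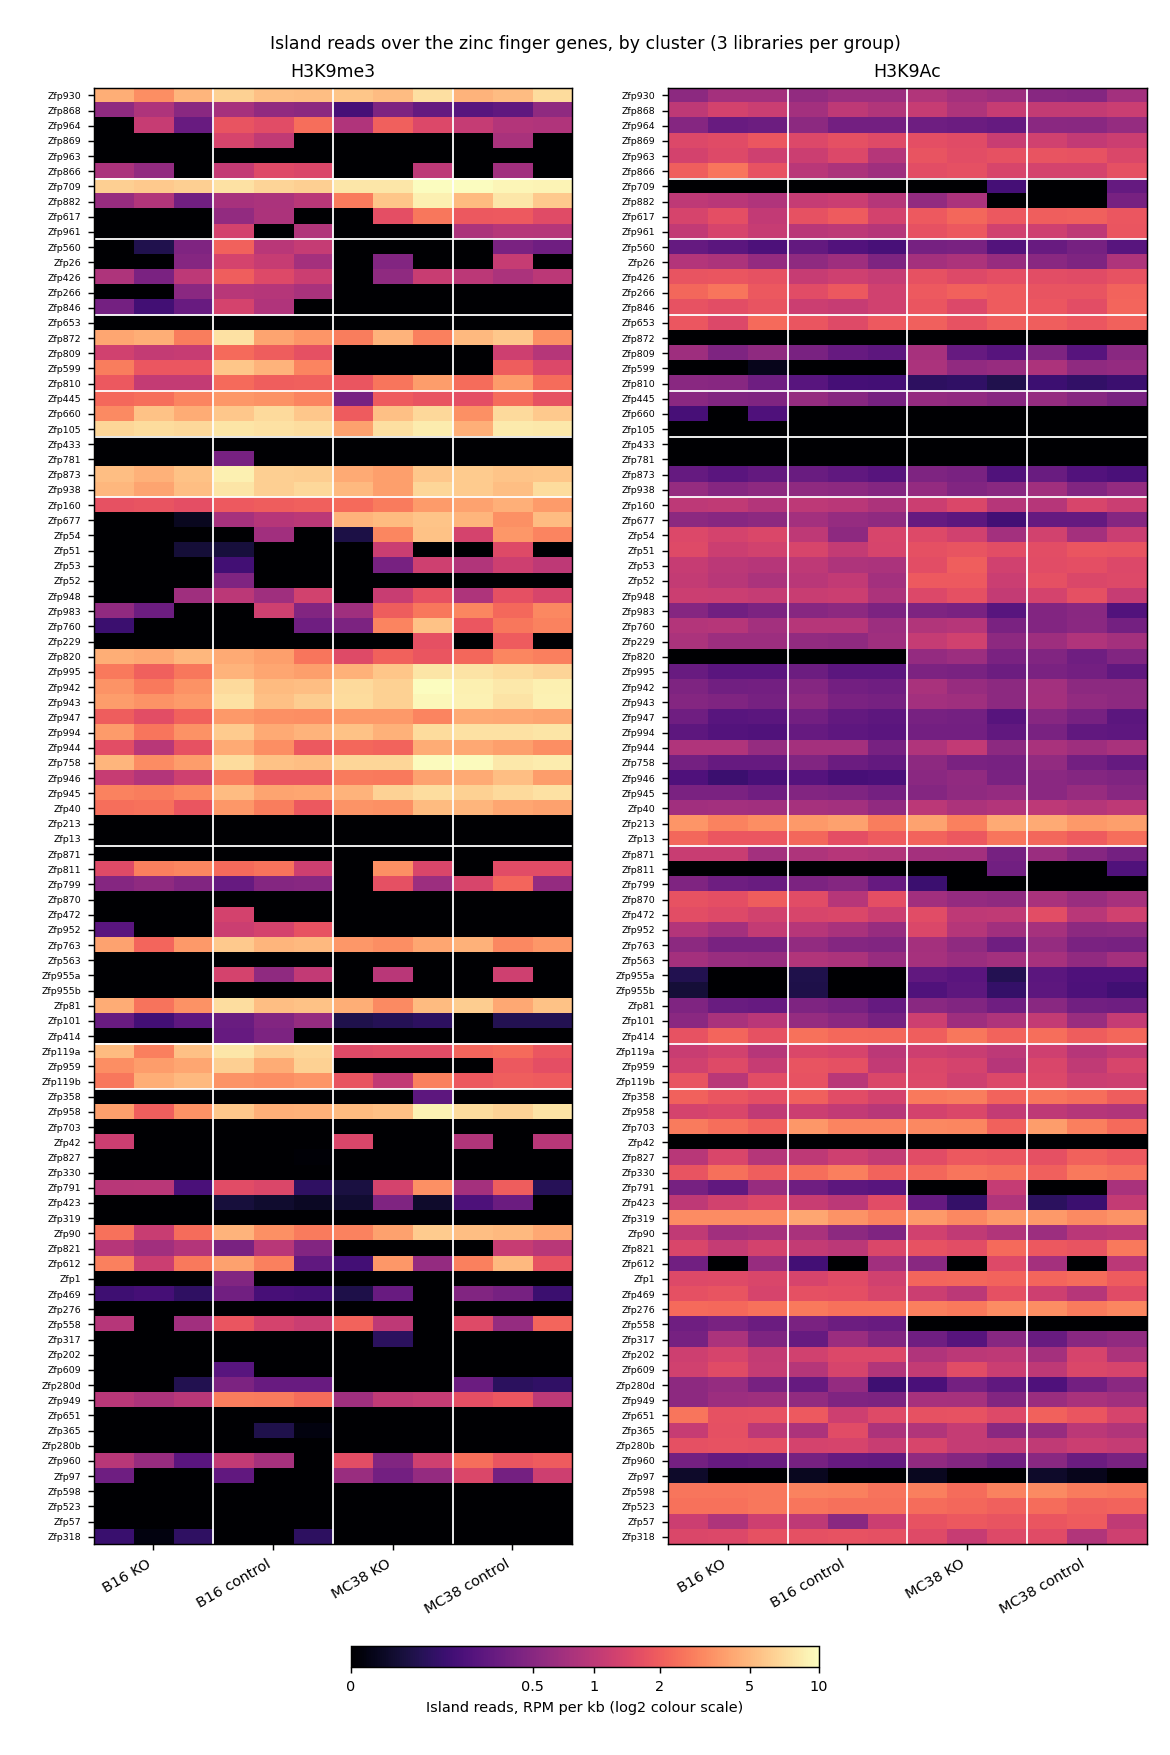
Island reads per kb (RPM per kb, log2 colour scale) of H3K9me3 (left) and H3K9Ac (right) over the 96 genes (rows; white lines part the 9 groups, isolated genes at the bottom) in 12 libraries a mark (columns; 3 per group). H3K9me3 is strong over parts of the chromosome 17 group from Zfp160 to Zfp13 and black, with no island, over Zfp213 and Zfp13 at its end, while H3K9Ac is called over 91 of the 96.

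The marks lay at opposite ends of the genes. Over the 84 genes with an annotated strand, H3K9me3 islands in B16 KO covered on average 4.39% of the first of 10 equal parts of the gene, at the 5′ end, and 28.996% of part 9. In B16 control the same means were 5.58% and 39.2%. H3K9Ac ran the other way, with 66.6% of part 1 and 27.6% of part 9 under islands in B16 KO, and 62.8% and 21.2% in B16 control. MC38 had the same shape: H3K9me3 covered 4.87% of part 1 and 31.3% of part 9 in KO, and 6.27% and 35.7% in control. H3K9Ac covered 70.4% of part 1 in MC38 KO and also in MC38 control.

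**Figure D2:**
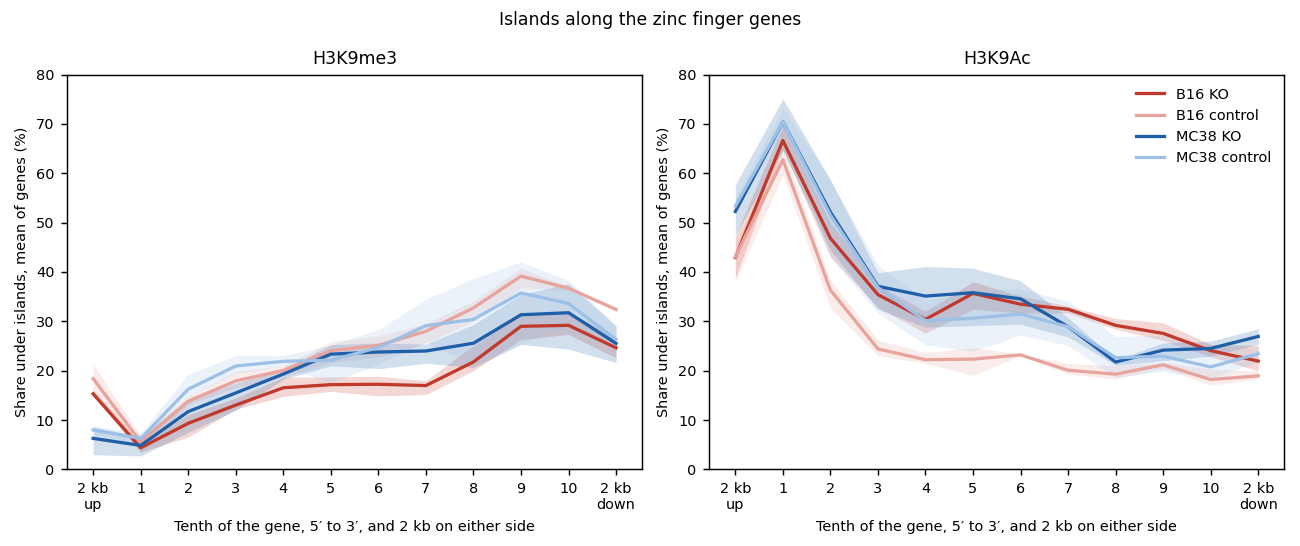
Mean share of each of 10 equal parts of the gene (5′ to 3′) and of the 2 kb on either side that lay under islands (%), over the 84 genes with a strand; lines are means of 3 libraries and bands run from the lowest to the highest library. H3K9Ac peaks in part 1 and H3K9me3 in part 9 or 10, and B16 KO lies below B16 control for H3K9me3 and above it for H3K9Ac inside the gene.

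The highest H3K9me3 levels per kb belonged to Zfp105 in B16, at 6.92 ± 0.155 RPM per kb in KO and 7.54 ± 0.263 in control (SD, n = 3 each). In MC38 they belonged to Zfp709, at 8.74 ± 1.24 RPM per kb in KO and 9.39 ± 0.465 in control (SD, n = 3 each). The gene Gm5373 also lies in the Zfp709 region. The highest H3K9Ac levels per kb belonged in all 4 groups to Zfp213 and Zfp319, between 3.23 and 3.98 RPM per kb, and neither had an H3K9me3 island in any library. The region of Zfp319 also holds Tepp and Usb1.

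In B16, H3K9me3 over these genes was lower in Setdb1 KO than in control as a group, and no single gene passed the test. Summed over the 96 genes it was 3032, 2498 and 2994 RPM in B16 KO and 5339, 4183 and 3885 RPM in B16 control. All 3 KO libraries lay below all 3 control libraries, and the KO mean was 63.6% of the control mean. The sums count reads shared by overlapping genes more than once. In 40 of the 96 genes every KO library lay below every control library, and in 0 every KO library lay above. The 40 are 55.6% of the 72 genes that averaged at least 10 reads, against a background of 9.44% of 25677 regions lower and 5.89% higher. Of 176 other Zfp genes tested, 66 (37.5%) were lower without overlap and 0 higher. By the share of the region under islands, 26 of the 77 genes with an island were lower and 2 higher, against 5.66% and 6.32% of 29134 regions. No member passed an adjusted p of 0.05 in edgeR's quasi-likelihood test with Benjamini-Hochberg adjustment, against 0.312% of all regions, while 10 of the 72 had an unadjusted p under 0.05, all of them lower, against 7.73% of all regions in either direction. Without B16 KO replicate 3, edgeR called 1 gene lower, against 0.424% of all regions. DESeq2 called 7 of the 72 lower (Zfp869, Zfp617, Zfp961, Zfp423, Zfp677, Zfp54 and Zfp955a) and 0 higher, against 8.28% of all regions in either direction. The fall went with less of the genes under islands: 14.4%, 12.7% and 15.6% of their summed length in B16 KO and 20.6%, 20.01% and 17.7% in B16 control, although B16 KO islands covered more of the genome.

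Genes with islands in all 6 B16 libraries were also lower in B16 KO as a group. There were 41 such genes, with a median log2 change of -0.58 in limma on log2(RPM + 0.5), against 0.00 over 7962 regions, and 34 of the 41 were below 0. The lowest was Zfp949 at -1.52, whose adjusted p of 0.0705 was the smallest of the 41, and the highest was Zfp821 at 0.54. limma called 0 of the 41, against 0.0251% of the 7962 regions.

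Single genes ran from a complete lack of islands in KO to almost no change. Zfp949, at chr9:88548020-88571086 and isolated from other Zfp genes, had 25.99, 22.05 and 25.5 RPM in B16 KO and 75.5, 74.5 and 64.1 RPM in B16 control, a log2 change of -1.54 ± 0.59 (SE, edgeR adjusted p = 0.552). The highest KO library lies well below the lowest control library. Zfp942, in the chromosome 17 group, had 138, 105 and 136 RPM in B16 KO and 278, 205 and 209.5 RPM in B16 control, a log2 change of -0.87 ± 0.37 (SE, edgeR adjusted p = 0.616). Its neighbour Zfp943, whose region overlaps and shares reads, had 136, 124 and 133 RPM in B16 KO and 271, 196 and 220.4 RPM in B16 control. Zfp677 had 0, 0 and 0.634 RPM in B16 KO and 14.7, 17.8 and 18.9 RPM in B16 control, so KO was at or near no island (edgeR adjusted p = 0.297). Zfp423, known as a determinant of fat cell precursors, had no island in B16 KO and 20.3, 14.9 and 11.2 RPM in B16 control. Zfp955a likewise had no island in B16 KO and 26.3, 11.03 and 20.6 RPM in B16 control. Zfp280d had 0, 0 and 8.79 RPM in B16 KO and 40.5, 29.97 and 29.6 RPM in B16 control. Zfp873, next to Zfp105 in level per kb in B16 control, had 180.5, 157 and 185 RPM in B16 KO and 295, 211 and 206 RPM in B16 control, again without overlap. Zfp105, the most heavily marked gene in B16, had close but separate ranges: 110.3, 115 and 111 RPM in B16 KO and 127, 121 and 119 RPM in B16 control.

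By position, the chromosome 9 group from Zfp560 to Zfp846 (chr9:20345136-20605404) had the lowest level relative to control. Its 5 genes summed to 34.2, 20.6 and 90.1 RPM of H3K9me3 in B16 KO and 262, 175 and 131 RPM in B16 control, a KO mean of 25.5% of control. Zfp560 had 0, 3.98 and 19.8 RPM in B16 KO and 92.2, 41.9 and 47.9 RPM in B16 control. Zfp266, whose region overlaps that of Zfp426, had 0, 0 and 15.8 RPM in B16 KO and 28.3, 27.2 and 23.5 RPM in B16 control. In both genes B16 KO replicate 3 was the highest KO library and still below control. The 23 genes from Zfp160 to Zfp13 summed to 1134, 917 and 1099.9 RPM in B16 KO and 1959, 1546 and 1469.7 RPM in B16 control, or 63.3% of control, and 12 of them were lower without overlap. The 13 genes from Zfp871 to Zfp414 stood at 58.8% of control. The 3 genes from Zfp445 to Zfp105 stood at 80.02% and the 3 from Zfp119a to Zfp119b at 79.5%. Every one of the 9 groups and the 30 isolated genes had a lower mean in B16 KO; these levels carry no test.

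**Figure D3:**
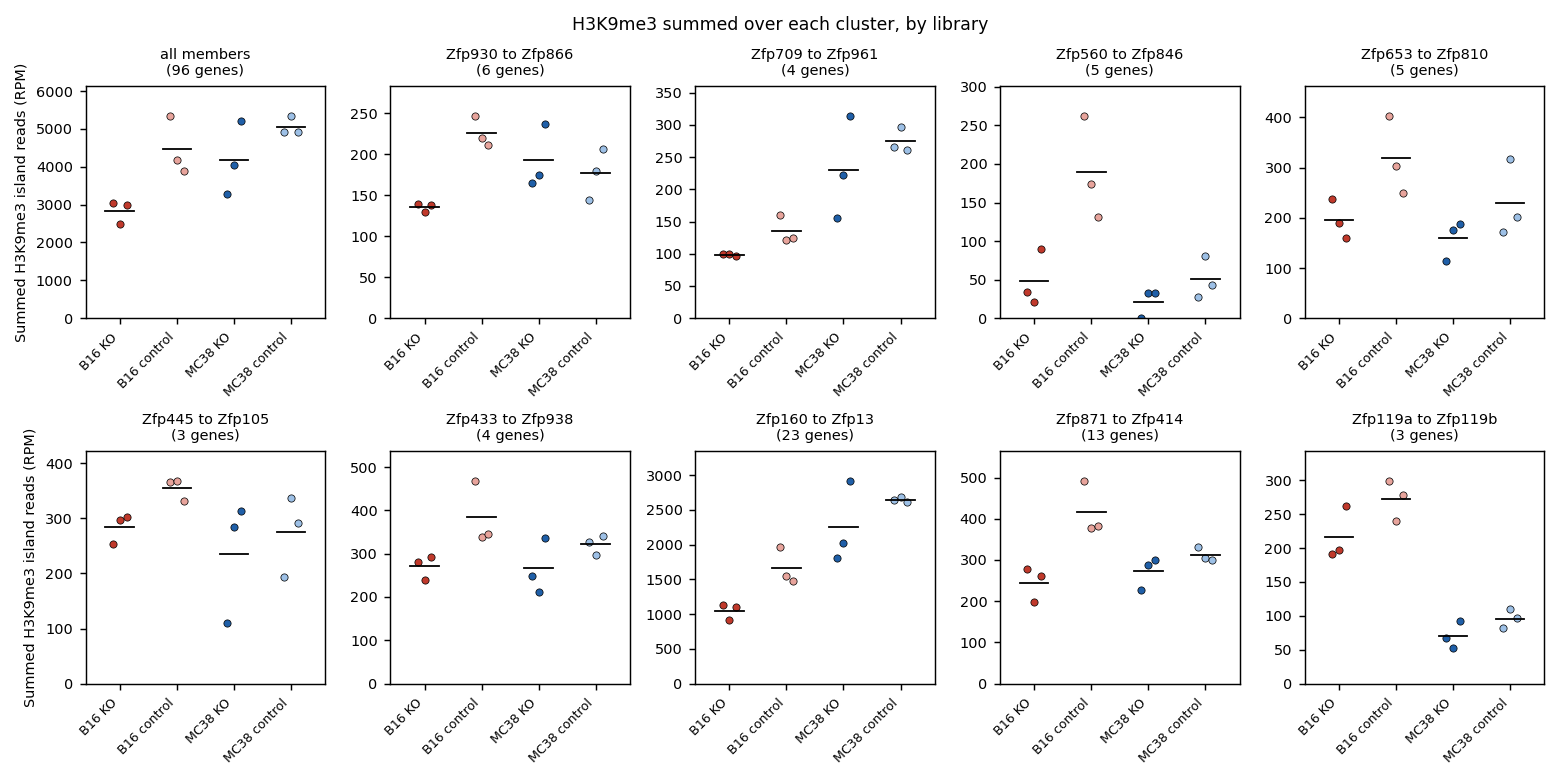
Summed H3K9me3 island reads (RPM, axes from 0) of all 96 genes and of each of the 9 groups; points are libraries and bars the means of 3. In B16 the sum over all 96 genes is 2498 to 3032 RPM in KO, below 3885 to 5339 RPM in control, while in MC38 KO it is 3272 to 5206 RPM, against 4912 to 5333 RPM in control.

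In MC38, the KO libraries were spread more widely and fewer genes were apart from control than in B16. The 96 genes summed to 3272, 4045 and 5206 RPM in MC38 KO and 4920.0, 5333 and 4912 RPM in MC38 control. The highest KO library, replicate 3, lay inside the control range, and the KO mean was 82.6% of control. In 7 genes every KO library lay below every control library (Zfp961, Zfp280d, Zfp960, Zfp820, Zfp947, Zfp994 and Zfp119a) and in 0 every one lay above, against a background of 1.73% of 25677 regions lower and 0.596% higher. The 7 are 9.72% of the 72 genes tested. Of 176 other Zfp genes tested, 8 (4.55%) were lower and 0 higher. Without replicate 3 of MC38 KO, the library with the least genome under islands, 24 genes were lower without overlap, against 5.08% of all regions. edgeR called 0 of the 72, against 0.136% of all regions, and 7 had an unadjusted p under 0.05, all lower, against 6.85% of all regions; DESeq2 called 7 lower (Zfp869, Zfp961, Zfp821, Zfp560, Zfp809, Zfp599 and Zfp959), against 7.17% of all regions. Without MC38 control replicate 1, edgeR called 4 genes lower (Zfp821, Zfp809, Zfp599 and Zfp959), against 0.256% of 25805 regions. Genes with islands in every MC38 library mostly pointed lower in MC38 KO as well. Of 39 such genes, 35 had a log2 change below 0 in limma. Their median was -0.27, against -0.11 over 4679 regions, and limma called 0 of the 39.

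Zfp994 had 179.6, 150.3 and 232 RPM of H3K9me3 in MC38 KO and 245, 245 and 251 RPM in MC38 control, a log2 change of -0.40 ± 0.39 (SE, edgeR adjusted p = 1). Zfp820 had 49.8, 68.7 and 59.9 RPM in MC38 KO and 73.3, 101 and 92.5 RPM in MC38 control. Zfp961 had no island in MC38 KO and 18.99, 21.5 and 20.7 RPM in MC38 control. Zfp280d also had none in MC38 KO and 31.3, 10.8 and 11.9 RPM in MC38 control. Zfp809, the retrovirus silencer, had no island in MC38 KO and 0, 39.0 and 28.8 RPM in MC38 control; the overlapping Zfp599 has the same values there, so these reads cannot be assigned to either gene.

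Whether the KO effect differs between the lines was tested directly. The test of the difference, the B16 KO effect minus the MC38 KO effect, called 0 of the 72 genes in edgeR, against 0.397% of all regions, with 5 higher and 4 lower at an unadjusted p under 0.05, against 9.38% of all regions. DESeq2 called 8, of which 4 were higher and 4 lower, against 11.2% of all regions. Without MC38 control replicate 1, edgeR called 4 genes higher, against 0.384% of all regions.

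H3K9Ac over these genes differed little between Setdb1 KO and control in sum, and 2 genes passed the test in B16. The sum over the 96 genes was 3040.0, 3196 and 2906 RPM in B16 KO and 2900.1, 2871 and 2717 RPM in B16 control, ranges that lie close to each other without overlap. Zfp866, at chr8:69761324-69774911, had 35.5, 45.3 and 30.8 RPM in B16 KO and 16.8, 14.1 and 12.1 RPM in B16 control. Every KO library was above every control library, and the log2 change was 1.38 ± 0.18 (SE, edgeR adjusted p = 0.0359). Zfp426, at chr9:20468549-20492746, had 49.7, 50.6 and 48.5 RPM in B16 KO and 31.1, 35.0 and 30.5 RPM in B16 control, a log2 change of 0.62 ± 0.09 (SE, edgeR adjusted p = 0.0452). The background was 0.0839% of 33363 regions called in either direction. With the replicate number as a block, which pairs the libraries of this mark, neither gene was called, against 0.051% of all regions: edgeR's adjusted p was 0.117 for Zfp866 and 0.133 for Zfp426, at log2 changes of 1.37 and 0.62. Of 12 edgeR fits with 1 library left out, the call of Zfp866 held in 2 (without B16 control replicate 1 or B16 KO replicate 3) and was lost in 10, with adjusted p from 0.0325 to 0.102. That of Zfp426 held in 1 (without B16 control replicate 2) and was lost in 11, with edgeR adjusted p from 0.0227 to 0.199. DESeq2 called both, along with Zfp846, Zfp810 and Zfp280b, all higher, against 3.07% of all regions. limma called 0 of 82 genes with islands in all 6 libraries and 0 of 23964 regions.

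H3K9Ac islands covered more of both genes in B16 KO. They covered 89.1%, 92.5% and 72.1% of the Zfp866 region in B16 KO and 41.4%, 38.0% and 31.8% in B16 control. For Zfp426 the shares were 79.2%, 82.8% and 79.2% in B16 KO and 36.9%, 49.5% and 48.9% in B16 control. Within 2 kb of the 5′ end on either side, scaled to the reads counted in such windows and so not comparable with the values above, Zfp866 had 58.3, 60.9 and 48.8 RPM in B16 KO and 60.2, 54.7 and 44.5 RPM in B16 control, ranges that overlap. Zfp426 had 67.4, 67.7 and 67.3 RPM there in B16 KO and 109.5, 117 and 97.2 RPM in B16 control. Reads are given per island and were spread evenly along it, so values in the 5′ window depend on an island's length as well as on its reads. Whether this changed the 5′ values was not tested. H3K9Ac islands also covered more of the genome in B16 KO, at 437 to 448 Mb, against 380.3 to 423 Mb in B16 control. Their part in the result was not tested. The share of the region under H3K9Ac islands was higher in B16 KO without overlap in 26 genes and lower in 0, against 9.74% and 0.511% of the 34453 regions with an island.

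By island reads, 9 genes were higher in B16 KO without overlap (Zfp280b, Zfp426, Zfp809, Zfp810, Zfp846, Zfp866, Zfp868, Zfp870 and Zfp961) and 3 were lower, against 4.73% and 3.35% of all regions. The 9 are 9.89% of the 91 genes tested. Of 279 other Zfp genes tested, 31 (11.1%) were higher and 10 (3.58%) lower, so the share is close to that of other Zfp genes. With 1 library fewer, which makes separation easier, the counts ran up to 17 higher without B16 control replicate 1, against 7.33% of all regions, and 15 lower without B16 control replicate 3, against 10.0%. Of the 9, Zfp426, Zfp809, Zfp810 and Zfp866 were also among the 40 genes lower in H3K9me3, which is 44.4% of the 9 and 10.0% of the 40. Of the 68 genes tested in both marks, 57.4% were lower in H3K9me3 and 10.3% higher in H3K9Ac, and the 4 genes with both made up 57.1% of those higher in H3K9Ac and 10.3% of those lower in H3K9me3, so the overlap was close to these shares. Over 15069 regions tested in both marks, 13.9% were lower in H3K9me3 and 4.22% higher in H3K9Ac, and 184 were both, or 8.79% and 28.9% of those lists. Zfp866 had 14.1, 10.3 and 0 RPM of H3K9me3 in B16 KO and 18.9, 26.6 and 25.4 RPM in B16 control. Zfp426 had 23.5, 11.8 and 27.9 RPM of H3K9me3 in B16 KO and 56.8, 41.9 and 33.6 RPM in B16 control. Zfp809 had 41.0, 34.7 and 36.0 RPM of H3K9me3 in B16 KO and 74.5, 64.9 and 54.3 RPM in B16 control. Its H3K9Ac was 22.01, 14.3 and 18.2 RPM in B16 KO and 13.2, 10.15 and 8.80 RPM in B16 control, a log2 change of 0.76 ± 0.44 (SE, edgeR adjusted p = 1). The region of Zfp809 overlaps that of Zfp599. Within 2 kb of the 5′ end Zfp809 had 105.8, 81.1 and 67.5 RPM in B16 KO and 85.4, 70.7 and 65.7 RPM in B16 control, which overlap. The whole group from Zfp560 to Zfp846, which stood at 25.5% of control in H3K9me3, summed to 211, 214 and 185 RPM of H3K9Ac in B16 KO and 145, 157 and 128 RPM in B16 control. Zfp846 of that group had 49.1, 44.9 and 49.5 RPM of H3K9Ac in B16 KO and 33.4, 31.2 and 35.5 RPM in B16 control (edgeR adjusted p = 0.721). Within 2 kb of the 5′ end Zfp846 had 72.2, 70.9 and 54.9 RPM in B16 KO and 55.1, 63.0 and 40.2 RPM in B16 control, which overlap. The regions of Zfp426 and Zfp266 overlap and share reads. Mean H3K9Ac in B16 KO was 141.7% of control from Zfp560 to Zfp846, 136.4% from Zfp653 to Zfp810 and 133.9% from Zfp930 to Zfp866. In the remaining groups and the isolated genes it lay between 95.4% and 106.9%. Among these, Zfp871 to Zfp414 stood at 58.8% of control in H3K9me3 and 106.9% in H3K9Ac. A link between the marks by group was not tested.

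The 3 genes with lower H3K9Ac in B16 KO were Zfp703, Zfp414 and Zfp677. Zfp703, a corepressor known from breast cancer, had 22.4, 19.6 and 16.998 RPM in B16 KO and 29.4, 24.4 and 24.2 RPM in B16 control, a log2 change of -0.41 ± 0.22 (SE, edgeR adjusted p = 1). It had no H3K9me3 island in any library.

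**Figure D4:**
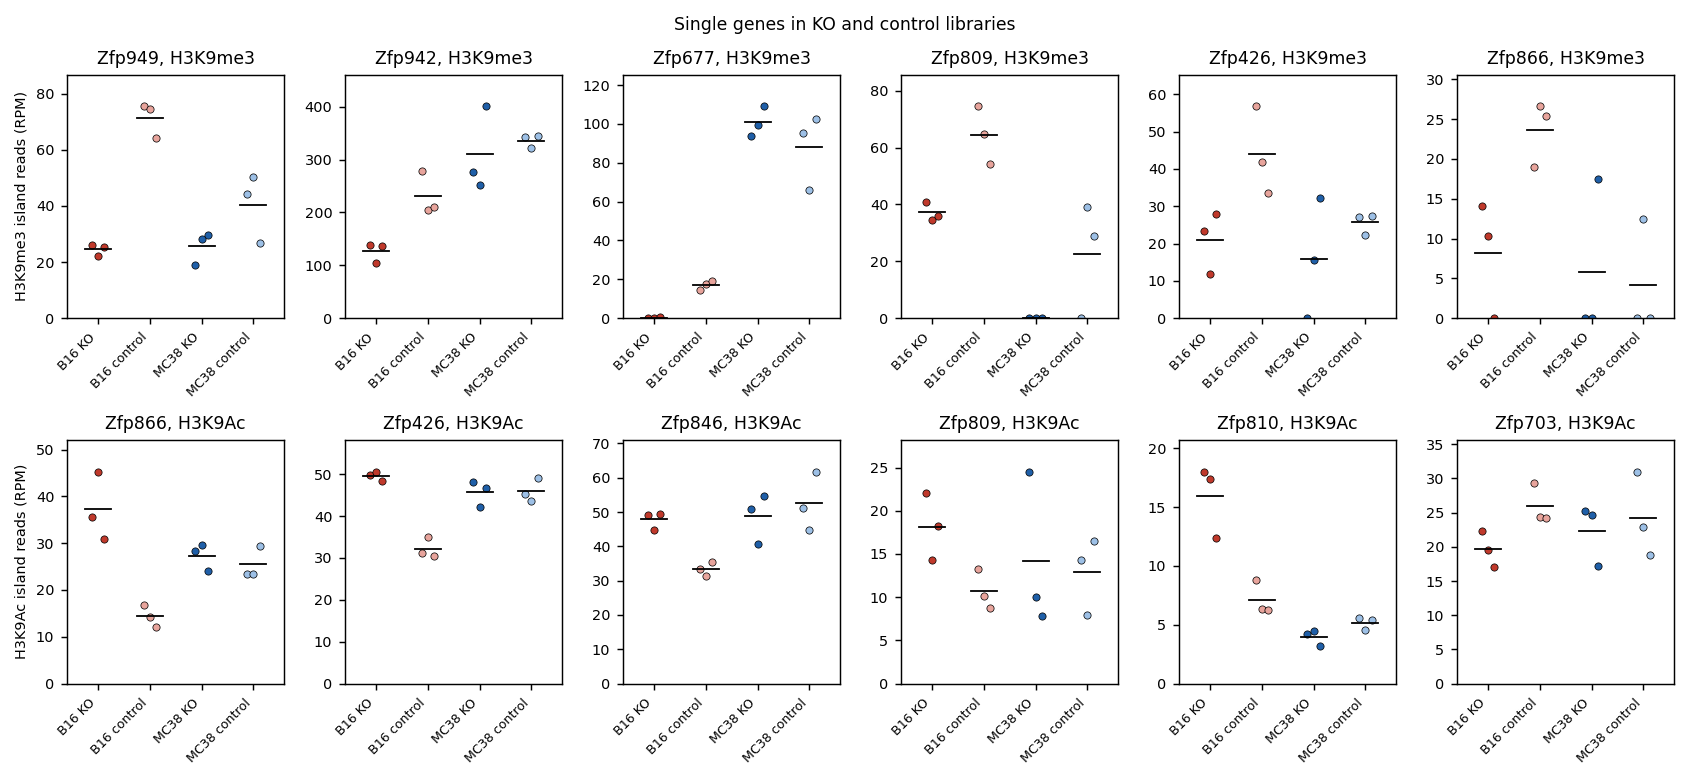
Island reads (RPM, axes from 0) of single genes in KO and control libraries of both lines, H3K9me3 above and H3K9Ac below; points are libraries and bars the means of 3. H3K9me3 of Zfp949, Zfp942, Zfp677, Zfp809, Zfp426 and Zfp866 is lower in all B16 KO libraries, and H3K9Ac of Zfp866 and Zfp426 is higher in them.

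In MC38, edgeR called none of the 91 genes with enough H3K9Ac reads, against 0.126% of all regions, with 4 higher and 1 lower at an unadjusted p under 0.05, against 3.13% of all regions. DESeq2 called Zfp964 and Zfp799, against 2.62% of all regions. Zfp958 was the 1 gene higher in MC38 KO without overlap, with 30.5, 33.5 and 24.9 RPM in MC38 KO and 23.8, 20.9 and 20.3 RPM in MC38 control. Zfp964 and Zfp810 were lower without overlap, and the background was 1.92% of regions higher and 1.87% lower. Without MC38 KO replicate 3, 15 were higher, against 7.69% of all regions. Zfp866 had 28.2, 29.6 and 24.1 RPM in MC38 KO and 23.4, 23.5 and 29.5 RPM in MC38 control, which overlap. Zfp426 had 48.3, 42.2 and 46.7 RPM in MC38 KO and 45.2, 43.6 and 49.1 RPM in MC38 control, which overlap too. The test of the difference between the lines' KO effects gave Zfp866 a log2 difference of 1.28 ± 0.26 (SE, edgeR adjusted p = 0.272) and Zfp426 one of 0.63 ± 0.12 (SE, edgeR adjusted p = 0.228), and called 0 genes, against 0.174% of all regions. At an unadjusted p under 0.05 it had 4 higher and 1 lower, against 4.27% of all regions. DESeq2 called 5 in that test, against 4.17% of all regions.

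More genes passed the test between the lines than between KO and control. Between MC38 control and B16 control, 16 genes differed in H3K9Ac in edgeR, 13 higher and 3 lower in MC38, against 19.4% of all regions called. That share of the 91 genes is close to the background. Within 2 kb of the 5′ end, edgeR called 11 of 77 genes, 3 higher and 8 lower, against 12.9% of 18684 such windows. The replicate block gave 25 calls, 19 higher and 6 lower, against 25.7% of all regions, and DESeq2 gave 30, against 32.3%. Without overlap, 23 genes were higher and 11 lower in MC38 control, against 19.3% and 19.5% of all regions. Zfp820 had 15.0, 11.9 and 15.0 RPM in MC38 control and no island in B16 control, nor in any B16 library (edgeR adjusted p = 0.000162). Within 2 kb of its 5′ end it had 96.0, 91.3 and 74.3 RPM in MC38 control. Its H3K9me3 was 73.3, 101 and 92.5 RPM in MC38 control and 144, 129 and 84.7 RPM in B16 control, which overlap. Zfp558 showed the reverse, with no H3K9Ac island in MC38 and 12.1, 9.85 and 9.11 RPM in B16 control (edgeR adjusted p = 0.000375), in a region that also holds Mbd3l1. Zfp799 had no island in MC38 control and 8.07, 9.06 and 5.82 RPM in B16 control (edgeR adjusted p = 0.0333), a call lost in 9 of the 12 fits with 1 library left out, those without 1 of the MC38 control, B16 KO or B16 control libraries. Zfp599, which shares its region with Zfp809, had 15.9, 11.04 and 11.6 RPM in MC38 control and no island in B16 control (edgeR adjusted p = 0.0142).

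Zfp946 had 19.02, 17.6 and 16.3 RPM of H3K9Ac in MC38 control and 8.57, 6.81 and 7.15 RPM in B16 control, a log2 change of 1.23 ± 0.21 (SE, edgeR adjusted p = 0.00262). Its H3K9me3 was higher in MC38 too, at 158, 193 and 139.9 RPM in MC38 control and 99.2, 65.9 and 66.0 RPM in B16 control (edgeR adjusted p = 0.181). Zfp827, known for recruiting chromatin remodellers to telomeres, had 283, 360.2 and 323 RPM of H3K9Ac in MC38 control and 171, 208 and 181 RPM in B16 control, a log2 change of 0.79 ± 0.18 (SE, edgeR adjusted p = 0.0120); it was not called within 2 kb of the 5′ end. Zfp866 and Zfp426, higher in B16 KO, were also higher in MC38 control than in B16 control, with a log2 change of 0.83 ± 0.18 for Zfp866 (SE, edgeR adjusted p = 0.0103) and of 0.51 ± 0.09 for Zfp426 (SE, edgeR adjusted p = 0.00276). Within 2 kb of the 5′ end neither was called, and Zfp426 turned: the log2 change was 0.35 for Zfp866 (edgeR adjusted p = 0.250) and -0.53 for Zfp426 (edgeR adjusted p = 0.114). Both comparisons use the same B16 control libraries. Over the gene region Zfp760 was lower in MC38 without overlap and did not pass (edgeR adjusted p = 0.0705). It had 10.4, 11.7 and 8.60 RPM of H3K9Ac in MC38 control and 20.3, 20.2 and 14.6 RPM in B16 control. Within 2 kb of the 5′ end Zfp760 was called, at a log2 change of -0.88 (edgeR adjusted p = 0.00213). It passed in 5 of 20 alternatives. The other genes called over the gene region were Zfp1, Zfp53, Zfp52, Zfp846, Zfp821, Zfp40 and Zfp51, higher in MC38, and Zfp870, lower in MC38. Zfp53 and Zfp52 share reads, and the region of Zfp821 also holds Ist1 and Atxn1l. Within 2 kb of the 5′ end Zfp1 turned to -0.32 (edgeR adjusted p = 0.0601). Zfp53, Zfp52, Zfp846 and Zfp821 were not called there either, at edgeR adjusted p of 0.524, 0.771, 0.0989 and 0.492. The start used for Zfp821 stood at chr8:109705258-109705557, inside the gene, which spans chr8:109695252-109724932. Zfp40, Zfp51, Zfp599 and Zfp870 have no annotated strand and so no such window. Of the genes called higher in MC38, Zfp820 and Zfp946 stayed called there. Leaving out 1 library ended the call of Zfp40 in 7 of 12 fits, of Zfp51 in 6, of Zfp52 in 5, of Zfp821 in 3 and of Zfp870 in 3. For Zfp40 these were B16 KO 1 and 3, MC38 control 1, 2 and 3 and B16 control 2 and 3, and for Zfp51 MC38 KO 1, B16 KO 3, MC38 control 2 and 3 and B16 control 2 and 3. For Zfp52 they were MC38 control 1, 2 and 3 and B16 control 1 and 3, for Zfp821 MC38 control 3 and B16 control 1 and 2, and for Zfp870 MC38 control 2 and B16 control 1 and 3.

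For H3K9me3, edgeR called 1 gene between the control lines, against 7.13% of all regions, and DESeq2 called 4, against 27.4%. Zfp882, at chr8:71908606-71918851, had 73.1, 113 and 84.4 RPM in MC38 control and 10.8, 11.4 and 13.49 RPM in B16 control, a log2 change of 2.92 ± 0.68 (SE, edgeR adjusted p = 0.0263). The call was lost with total reads, stricter islands or the replicate block, at edgeR adjusted p of 0.112, 0.0884 and 0.0855. It was also lost without MC38 control replicate 3 or any single B16 control library, with edgeR adjusted p up to 0.0783. Its region overlaps that of Zfp617. Without overlap, 23 genes were higher and 16 lower in MC38 control, against 13.6% and 20.7% of all regions, whose median log2 change was -0.20. Of the 23 higher genes, 15 lie in the group from Zfp160 to Zfp13, which summed to 2642, 2680.0 and 2616 RPM in MC38 control and 1959, 1546 and 1469.7 RPM in B16 control. Zfp677 of that group had 95.5, 66.2 and 103 RPM in MC38 control and 14.7, 17.8 and 18.9 RPM in B16 control (edgeR adjusted p = 0.234). Zfp995 had 271, 252 and 233 RPM in MC38 control and 168, 147.5 and 137 RPM in B16 control (edgeR adjusted p = 0.243). Zfp758, next to Zfp709 in level per kb in MC38 control, had 356, 295 and 307 RPM in MC38 control and 262, 202 and 193 RPM in B16 control. Zfp995 and Zfp758 stand in the same group and were higher in every MC38 control library. The region of Zfp758 overlaps that of Zfp944. Zfp952 had no H3K9me3 island in MC38 control and 19.3, 21.8 and 28.4 RPM in B16 control. Zfp101 had 0, 1.8 and 1.79 RPM in MC38 control and 6.05, 8.69 and 11.2 RPM in B16 control, both low. The group from Zfp119a to Zfp119b ran the other way, with 81.7, 109.8 and 96.1 RPM in MC38 control and 299, 241 and 278 RPM in B16 control. Zfp119a had 40.7, 42.8 and 34.2 RPM in MC38 control and 148, 116 and 125 RPM in B16 control (edgeR adjusted p = 0.0726).

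**Figure D5:**
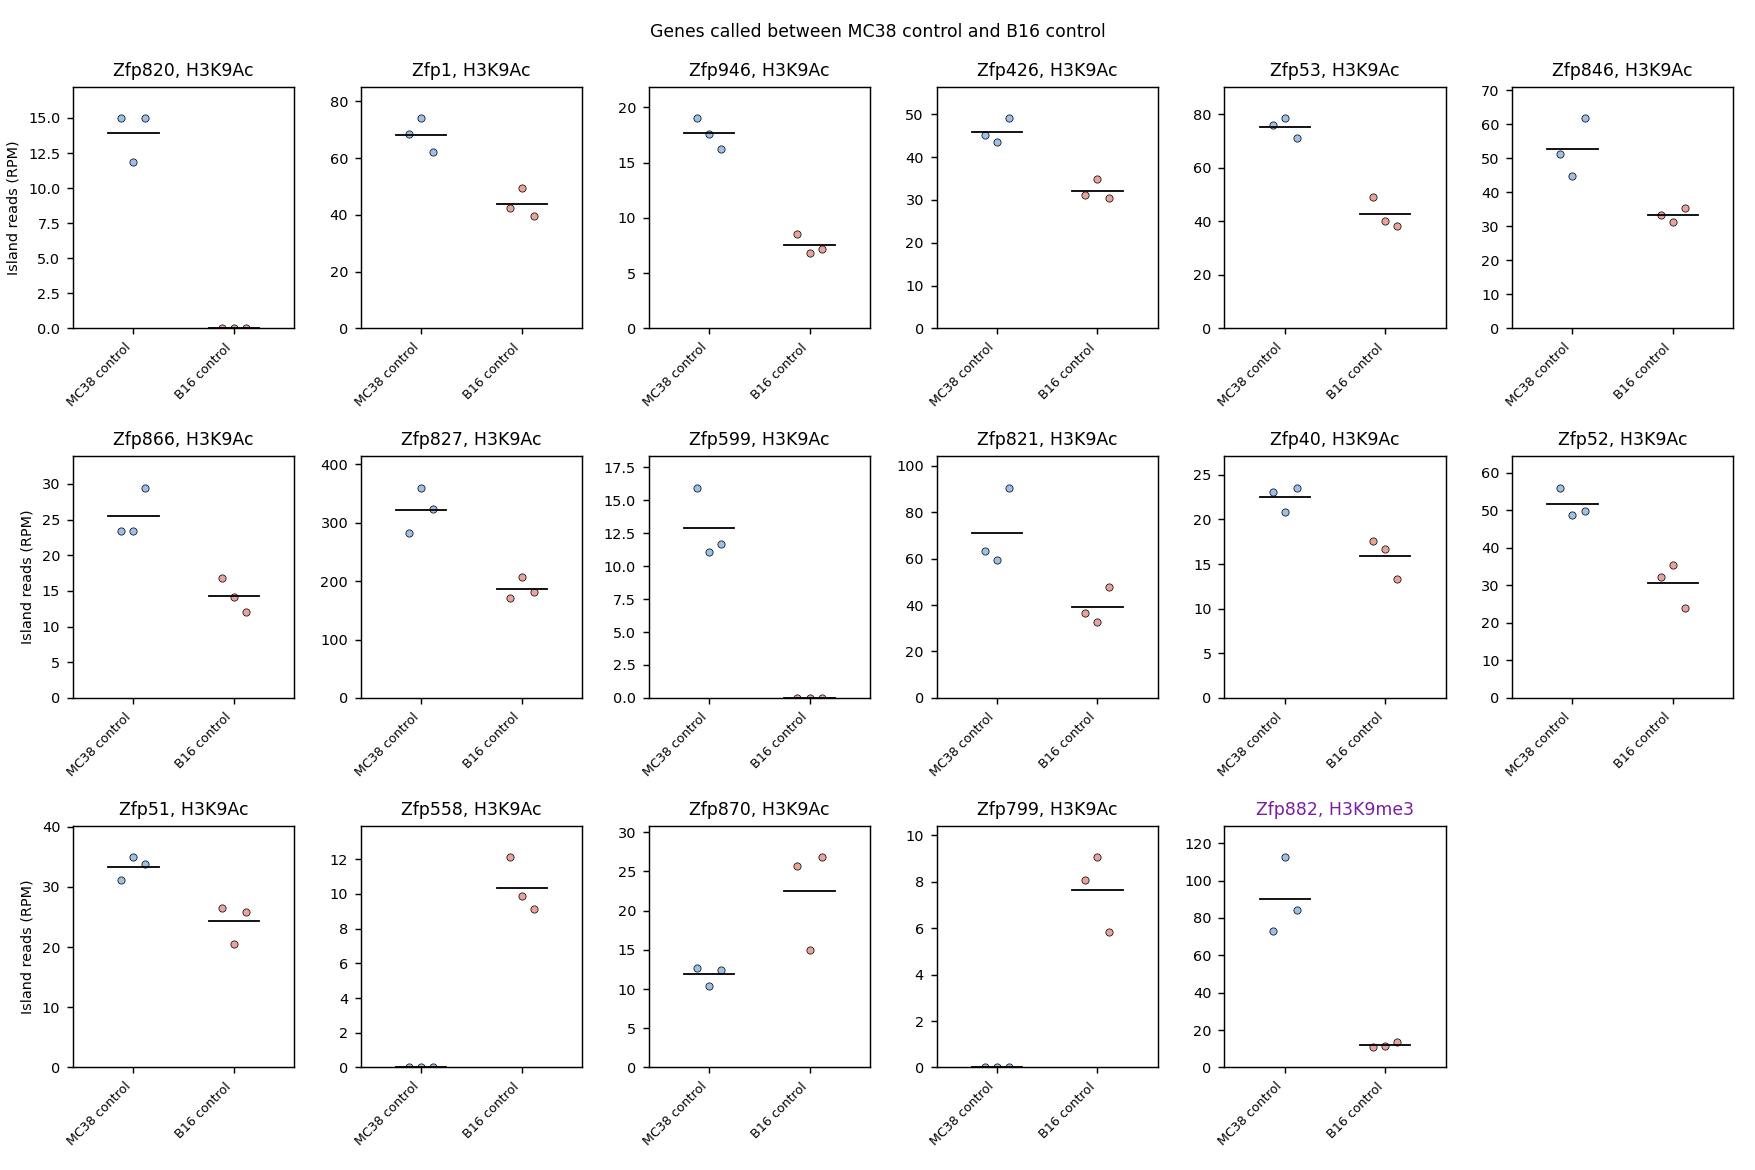
Island reads (RPM, axes from 0) in MC38 control and B16 control libraries of the 16 genes called in H3K9Ac and of Zfp882, called in H3K9me3; points are libraries and bars the means of 3. The 13 genes from Zfp820 to Zfp51 are higher in MC38 control, and Zfp558, Zfp870 and Zfp799 are lower.

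Genes with known roles of other kinds are given here by name. Zfp57 had no H3K9me3 island in any library and 16.1, 11.3 and 16.2 RPM of H3K9Ac in B16 KO and 13.8, 6.97 and 16.1 RPM in B16 control. The region of Zfp57 also holds Mog. Zfp598, which senses collided ribosomes, had no H3K9me3 island either, and 42.3, 42.5 and 43.1 RPM of H3K9Ac in B16 KO and 47.7, 47.5 and 41.4 RPM in B16 control. Zfp42 had no H3K9Ac island, and H3K9me3 islands in 4 libraries of the 12: 1 of B16 KO, 0 of B16 control, 1 of MC38 KO and 2 of MC38 control. Zfp423 had 310.04, 390.1 and 442 RPM of H3K9Ac in B16 KO and 343, 294 and 479 RPM in B16 control. In MC38 its H3K9Ac was 93.4, 41.5 and 254 RPM in KO and 34.5, 46.3 and 324 RPM in control, so replicate 3 is far above the others in both groups. Zfp469, known in human for brittle cornea syndrome, Zfp318 and Zfp365 had overlapping H3K9Ac ranges in KO and control of both lines.

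The genes of the silencing machinery were read as a list of 29 symbols, 28 of them in the table, of which 9 had enough H3K9me3 reads and 28 enough H3K9Ac reads to test. None was called between KO and control of either line in either mark. H3K9me3 was lower in B16 KO without overlap at 3 of the 9, against the 9.44% of all regions given above: Atf7ip, Morc2a and Resf1, partners of Setdb1 or of the HUSH complex. Atf7ip had 22.5, 14.1 and 12.9 RPM in B16 KO and 131, 85.2 and 89.5 RPM in B16 control. Morc2a had no island in B16 KO and 24.2, 28.2 and 22.2 RPM in B16 control. H3K9Ac was higher in B16 KO without overlap at 4 of the 28 (Atf7ip, Morc2a, Morc3 and Hdac1), against 4.73% of all regions, and lower at 0. Atf7ip had 196, 252.5 and 189 RPM of H3K9Ac in B16 KO and 114.7, 150.2 and 114 RPM in B16 control. In MC38 KO, 2 of the 28 were higher (Setdb1 and Suv39h2), against 1.92% of all regions. Between MC38 control and B16 control, edgeR called 5 of the 28 higher and 2 lower in H3K9Ac, against 19.4% of all regions in either direction.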

How the data were processed

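Per the labels' protocols, 2 histone marks were profiled by MNase chromatin immunoprecipitation and sequencing. The submitters' processing notes name cutadapt, Bowtie2 2.1.0, SAMtools 0.1.8, SICER 1.1, deepTools 3.1.1 and the build mm10. The authors deposited, for each of 24 libraries, islands with a whole-number count of reads, and per the file names SICER used 200 bp windows, a 600 bp gap and a false discovery rate of 0.05. Reads outside islands, and with them the full depth, are not in these values; 4 inputs were not used here. Counts were apportioned to each gene with 2 kb on either side by the share of an island's length in it, and rounded. Regions with a mean of at least 10 reads were fitted per mark over 12 libraries with TMM and edgeR 4.0.16 (quasi-likelihood test, Benjamini-Hochberg adjustment over all regions, threshold 0.05). R 4.3.3, limma 3.58.1, DESeq2 1.42.0, python 3.11.15, numpy 2.4.6 and pandas 2.3.3 were used. On simulated counts for B16 KO against control, the H3K9me3 fit recovered 35.5% of 200 genes changed 2-fold and 97.5% of 200 changed 4-fold on 25677 regions. The H3K9Ac fit recovered 44% and 99% on 33363 regions. These counts were drawn with a fixed dispersion of 0.05 around the same mean in all groups, apart from the set changes. Islands missing from single libraries were not simulated, so these shares need not hold for the real libraries.

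Deviations from the group means of same-numbered H3K9Ac libraries correlated in every pair, at 0.267, 0.531 and 0.496 in B16 and 0.156, 0.497 and 0.387 in MC38, so the numbers pair that mark. Those of H3K9me3 did not in every pair. Named genes are those past the adjusted p, per mark and line up to 6 lower and 6 higher without overlap by smallest unadjusted p (up to 5 each way between the control lines), the 2 highest per kb in each group, and a list with known roles; genes outside that rule, such as Zfp560, Zfp872 and those listed as called by DESeq2, were chosen after their values were seen. The genes, lists and tests were chosen with earlier results of these data known. Alternatives were other scalings and tools, stricter islands, no flanks, 2 kb around the 5′ end, the replicate block and leaving out each library.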

Additional observations from a re-analysis of the deposited data

Results flagged for a closer look

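Zfp810, a zinc finger gene of the chromosome 9 group from Zfp653 to Zfp810, lay on opposite sides of control in the lines by reads over the gene region. Its H3K9Ac was 18.02, 17.4 and 12.4 RPM in B16 KO and 8.79, 6.31 and 6.22 RPM in B16 control, with every KO library above every control library. In MC38 it was 4.23, 4.43 and 3.17 RPM in KO and 5.59, 4.58 and 5.38 RPM in control, with every KO library below every control library. The B16 KO effect minus the MC38 KO effect was 1.56 ± 0.42 on the log2 scale (SE), and edgeR's test of that difference gave an adjusted p of 0.903.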

How the results depend on the processing

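Counts of called genes depended on the tool. For H3K9me3, B16 KO against control had 1 call without flanks and 7 with DESeq2; MC38 KO had 7 with DESeq2; the difference between the lines' KO effects had 1 without flanks and 8 with DESeq2. MC38 control against B16 control had 0 with total reads, stricter islands or the replicate block, 2 without flanks and 4 with DESeq2; Zfp882 passed in 12 of 19 alternatives. For H3K9Ac in B16 KO there was 1 call with total reads, 5 with DESeq2 and 0 with stricter islands, the replicate block, the 5′ window, the 6 libraries of the line alone or limma; in MC38 KO DESeq2 gave 2; the difference between the lines had 1 without flanks and 5 with DESeq2; MC38 control against B16 control had 25 with the replicate block, 30 with DESeq2 and 11, of which 3 higher and 8 lower, in the 5′ window.

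Genes without overlap, H3K9me3 in B16 KO: 26 lower by share under islands, against 5.66% of 29134 regions, and 1 higher with size factors or stricter islands and 2 by share, against 6.32%. In MC38 KO, 3 were lower with size factors and 2 with total reads, and 1 higher with size factors. By share, 10 were lower there, against 1.41% of 29134 regions. For H3K9Ac in B16 KO, 1 was lower without flanks and 0 by share, and 4 higher with stricter islands and 26 by share; by share 0.511% of 34453 regions were lower and 9.74% higher. In MC38 KO, 2 were higher with size factors, 0 with total reads, 3 without flanks and 3 by share, against 1.85% of regions by share.

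Leaving out 1 library gave, for H3K9me3 calls, 0 to 1 in B16 KO, 0 to 4 in MC38 KO, 0 to 4 for the difference and 0 to 2 between lines; for genes without overlap, 40 to 47 lower and 0 to 2 higher in B16 KO, 7 to 24 lower and 0 to 3 higher in MC38 KO. For H3K9Ac, calls were 0 to 1 in B16 KO and 11 to 18 between lines; without overlap, 12 to 17 higher and 4 to 15 lower in B16 KO, 1 to 15 higher and 2 to 5 lower in MC38 KO. The shares of all regions rose too: for H3K9me3 they ran from 11.4% to 15.2% lower and 7.82% to 14.6% higher in B16 KO and 3.84% to 5.08% and 1.01% to 4.59% in MC38 KO, and for H3K9Ac from 7.07% to 9.72% higher and 5.25% to 10.0% lower in B16 KO and 3.37% to 7.69% and 3.98% to 7.81% in MC38 KO. Directions turned in H3K9Ac for B16 KO in the 5′ window at Zfp426 (-0.68), Zfp280b (-0.21) and Zfp868 (-0.10), and with stricter islands at Zfp280b (-0.17) and Zfp868 (-0.40). For MC38 control against B16 control they turned in the 5′ window at Zfp1 (-0.32), Zfp426 (-0.53) and Zfp871 (0.090). The cause was not tested. Deviations of same-numbered H3K9me3 libraries correlated at 0.211, 0.171 and 0.0135 in B16 and 0.308, 0.224 and -0.254 in MC38, so not in every pair. With the replicate block 0 genes were called in that mark in any comparison.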
